A study of Mus musculus with 6 samples.

Results

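The collagen genes are the members of the gene family whose symbols have the form Col, a type number, the letter a and a chain number. All 44 genes with such a symbol in the deposited tables were taken, of 19943 genes in all, and each of the 44 was listed in all 6 tables. The tissue was the medial prefrontal cortex, which lies on the inner face of the frontal lobe, and the strain was C57BL/6. The 3 isolated libraries came from mice kept in social isolation over the 3 weeks that followed weaning, and the 3 control libraries from mice labelled as controls, whose housing is not described. The sample labels give 6 weeks of age in both groups and the series text gives 7 weeks. No transgene, drug or other treatment is named for either group, the sex is not given, and nothing states that each library is a different mouse. The p-values therefore measure the spread between these libraries, which may be technical. The comparison asks how early social isolation alters gene expression in this cortex.

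Collagens are secreted or membrane-bound matrix proteins in which chains wind around each other into a triple helix, and the helix requires a glycine at every 3 residues. Fibrillar collagens form long ropes, type IV collagen forms the sheet of the basement membrane, and the others decorate fibrils, form beaded filaments or open networks, or span the cell membrane. In brain tissue most collagen protein lies in the basement membrane around blood vessels and in the meninges, while some neurons make members of the fibril-associated and membrane-spanning groups. By class the 44 genes were 11 fibrillar, 6 type IV and 27 other collagens.

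The classes differ in the coding repeat itself, and an exon of 4 genes that the results return to is shown here with the glycine codon that opens each repeat in capitals. Glycine codons at other positions are left in lower case. The 54-base exon holds 6 repeats of 9 bases, each repeat a glycine codon followed by any other 2 codons. The coordinates and exons are those of GENCODE M21 on GRCm38, read 5′ to 3′ on the strand of the gene, and exons are numbered from the 5′ end of the transcript.
Col11a1, exon 15, plus strand, chr3:114108281-114108334: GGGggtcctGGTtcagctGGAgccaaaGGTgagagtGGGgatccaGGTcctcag
Col1a1, exon 8, plus strand, chr11:94939904-94939957: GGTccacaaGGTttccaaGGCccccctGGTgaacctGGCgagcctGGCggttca
Col6a1, exon 9, minus strand, chr10:76719623-76719676: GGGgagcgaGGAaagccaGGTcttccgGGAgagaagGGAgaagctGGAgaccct
Col4a1, exon 21, minus strand, chr8:11235095-11235259: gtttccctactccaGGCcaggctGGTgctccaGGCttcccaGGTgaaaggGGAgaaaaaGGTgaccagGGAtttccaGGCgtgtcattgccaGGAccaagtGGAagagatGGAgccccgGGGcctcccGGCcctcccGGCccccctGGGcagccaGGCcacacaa
The Col11a1, Col1a1 and Col6a1 exons each begin on a glycine codon and repeat without a break. The Col4a1 exon is 165 bases long, does not begin on the repeat, and carries 16 marked glycine codons with 2 extra codons inserted between repeats at 1 place. The exons were chosen to show these forms, so they are examples and do not compare the genes. Exons of 54 bases made up 46.3%, 41.2%, 8.57% and 3.85% of the coding exons of Col11a1, Col1a1, Col6a1 and Col4a1.

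Over the whole coding sequence the classes could be compared without a choice of exon. The longest unbroken run of glycine repeats was 216 to 344 repeats in the 11 fibrillar genes, with a median of 338, against 39 to 66 in the 6 type IV genes, with a median of 43.5. The 27 other collagens had longest runs of 23 to 113 repeats, with a median of 45. Counting runs of at least 6 repeats, a fibrillar gene had 2 to 3 runs and a type IV gene 22 to 27, so type IV helices are broken up many times. Exons of exactly 54 bases made up 47% of the 649 fibrillar coding exons, 4.05% of the 296 type IV exons and 14.3% of the 1060 exons of the others. Among all 212431 annotated coding exons the share was 0.675%. Within the fibrillar class, Col24a1 and Col27a1 had the shortest longest runs, of 216 and 217 repeats. The type VI genes Col6a3, Col6a4, Col6a5 and Col6a6 had only 10.1%, 14.4%, 11.8% and 14.3% of their coding bases in repeats. The fibril-associated Col12a1, Col20a1 and Col14a1 were alike, at 8.22%, 11% and 14%. In all of these genes most of the protein lies outside the helix.

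Collagen RNA made up a small part of the cortical libraries. The 44 genes together held 0.0246% to 0.0271% of all FPKM, which are deposited read counts scaled for gene length and library size. The most abundant gene was Col6a1, which encodes a chain of the type VI beaded filament, at a mean level of 16.4 FPKM over the 6 libraries, above 70.3% of the tested genes. Col4a2 and Col4a1, the chains of the common basement membrane collagen, followed at 10.9 and 8.33 FPKM. Col25a1, a membrane-spanning collagen first found in amyloid plaques of human brain and needed for motor innervation of muscle in mice, came next at 7.62 FPKM. Col19a1, a fibril-associated collagen made by interneurons of the mouse brain, stood at 5.04 FPKM.

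The next genes by level were Col6a2 at 4.52 FPKM, Col11a2 at 3.87, Col5a1 at 3.44, Col1a2 at 3.15 and Col16a1 at 3.12. In the order of mean levels, Col6a1 did not overlap Col4a2 over the 6 libraries and Col4a2 did not overlap Col4a1. From Col4a1 downward the 6-library range of every gene overlapped that of its neighbour, so these ranges do not resolve the order of neighbours there. Within a library Col4a1 and Col25a1 always held ranks 3 to 4, and Col19a1 ranks 5 to 7. The first 10 genes held 71.5% to 74.5% of the collagen FPKM of a library. The lowest was Col10a1, the network collagen of growing cartilage, at 0.0483 FPKM, with 1 to 5 counts in a library. The cartilage collagen gene Col2a1 stood at 0.16 FPKM and Col3a1, a fibrillar collagen of vessel walls and meninges, at 0.355 FPKM.

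**Figure D1:**
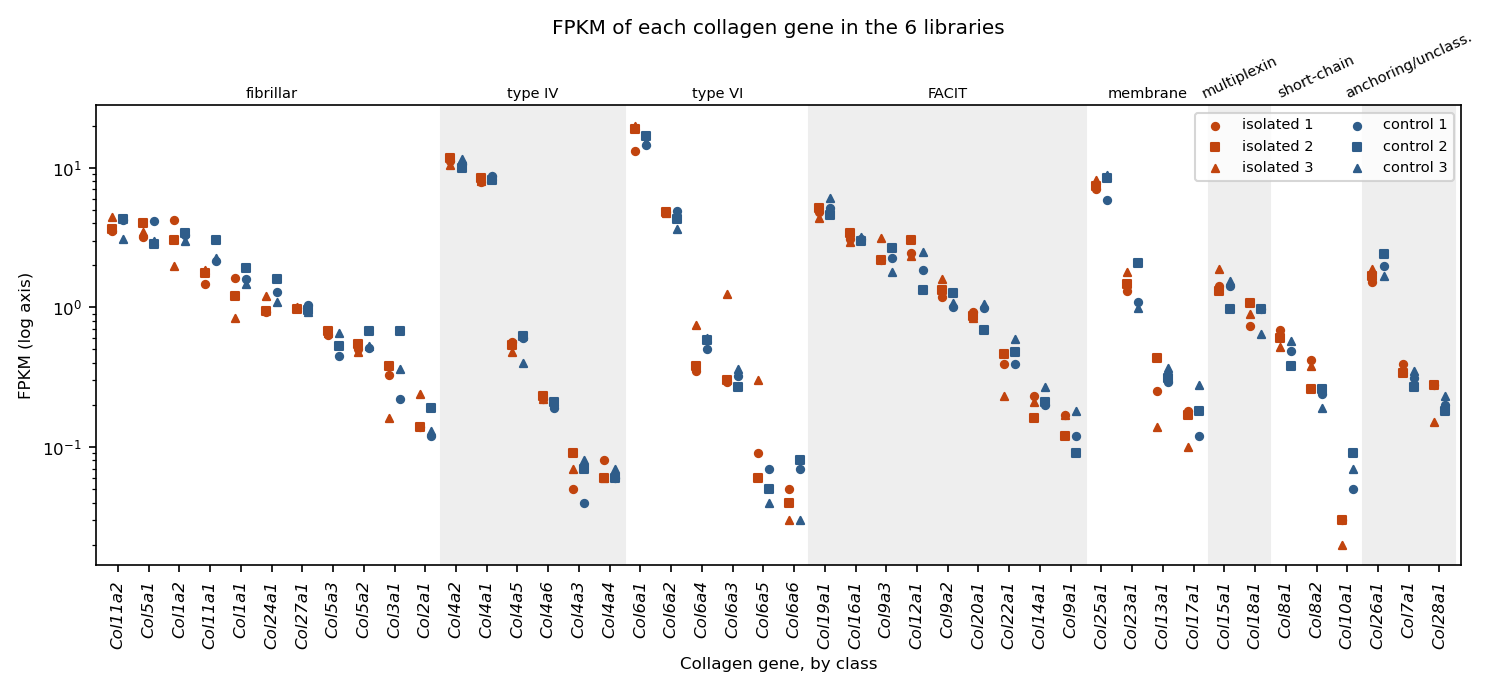
Level of each collagen gene in FPKM (log axis) in each library, by class and in falling order of level within a class; isolated libraries are drawn left of control libraries and symbols mark the library number. Col6a1 (mean 16.4), Col4a2 (10.9) and Col4a1 (8.33) lie highest, and in isolated 3 Col6a3 and Col6a5 stand far above the other libraries.

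The levels of the abundant genes were repeatable between libraries. Among the 11 collagens with at least 200 counts in every library, the highest library was 1.11 to 2.28 times the lowest in CPM, with a median of 1.42. CPM are expected counts scaled to a common library size with TMM factors, and they serve here to compare libraries for 1 gene. The steadiest gene was Col4a1, at a ratio of 1.11. Over all 40 collagens that passed the filter on low counts the ratio ran up to 7.2, in Col6a5, a type VI chain with 7 to 52 counts. The filter kept 15169 of the 19943 genes, and it removed Col4a4, Col6a6, Col9a1 and Col10a1 among the collagens.

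No collagen gene passed the test between isolated and control libraries. With edgeR's quasi-likelihood test and Benjamini-Hochberg adjustment at 0.05, 0 of the 40 tested collagens were called higher and 0 lower, as were 0 of all 15169 genes (0% in each direction), and every collagen had an adjusted p of 0.999. At an unadjusted p under 0.05 there were 2 of the 40 collagens, Col8a2 on the higher side and Col11a1 on the lower, against 535 of all tested genes (3.53%), of which 231 were higher and 304 lower. The collagen count is near this background. DESeq2 called 1 of 19893 genes (0.00503%), not a collagen, and limma-voom called 0. In bulk tissue, fewer cells of a type and less RNA per cell cannot be told apart, and this holds for every difference given here.

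The differences were spread to both sides of zero. On the scale of log2 isolated over control, 22 of the 40 collagens lay above zero and 18 below, with a median of 0.03 and a range of -0.55 to 1.45. Of all tested genes 7462 lay above and 7707 below, with a median of 0.00. The fibrillar class had 4 of 11 genes above and 7 below, with a median of -0.06. Type IV had 3 of 5 above and 2 below, with a median of 0.04. The other collagens had 15 of 24 above and 9 below, with a median of 0.14. The isolated and control libraries did not overlap in CPM for 2 of the 40 genes, Col11a1 and Col4a6, against 1342 of all tested genes (8.85%).

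**Figure D2:**
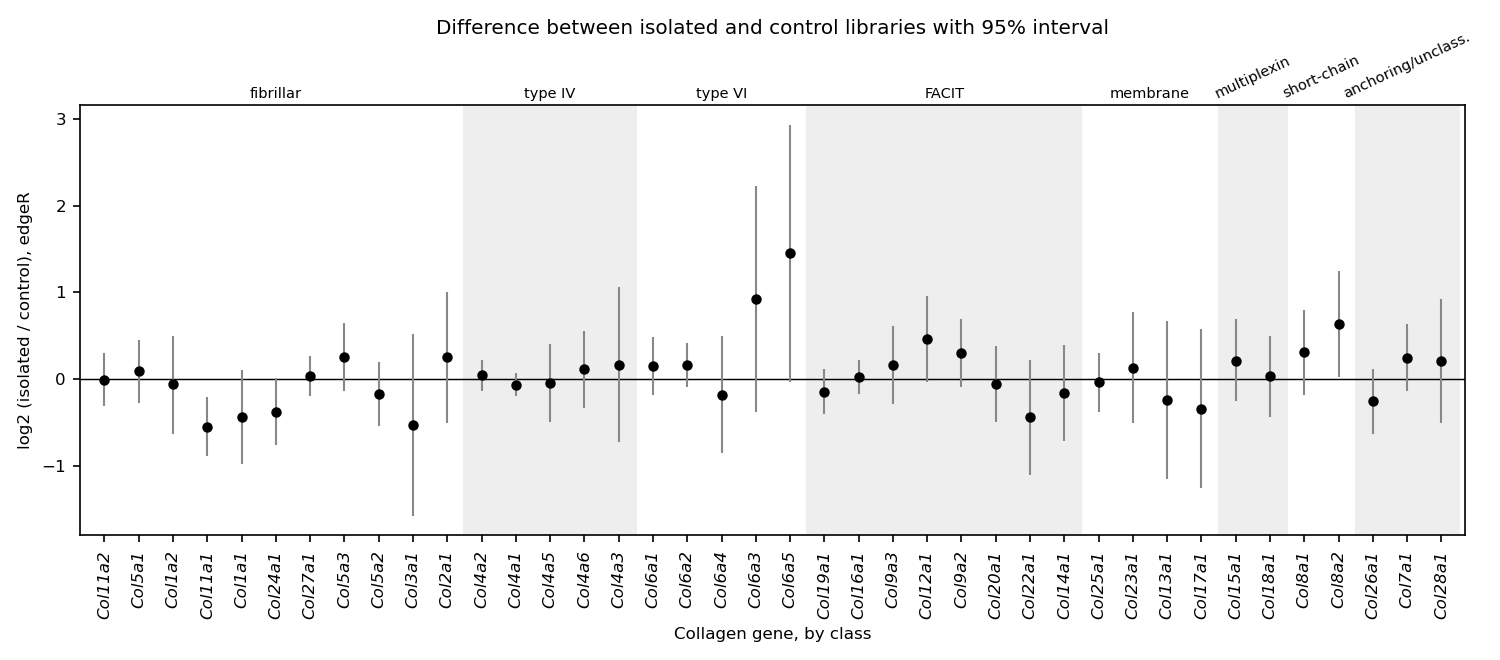
Difference between isolated and control libraries for each of the 40 tested collagens as log2 of isolated over control, with its 95% interval from the edgeR fit (n = 3 libraries in each group), by class. The intervals of Col11a1 (-0.55) and Col8a2 (0.63) exclude zero before adjustment for the number of genes tested, and the widest is that of Col6a5 (1.45).

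Among the fibrillar collagens the lowest unadjusted p belonged to Col11a1, the type XI chain that sits inside cartilage fibrils and limits their width. Col11a1 lies at chr3:114030479-114220756 of GRCm38 and is the gene of the first exon printed above. It stood at 11.5, 13.8 and 14.3 CPM in isolated 1 to 3, against 16.6, 23.5 and 17.8 CPM in control 1 to 3. All 3 isolated libraries lay below all 3 control libraries, and control 2 was the highest. The means were 13.2 ± 1.47 CPM in isolated and 19.3 ± 3.65 CPM in control libraries (SD, n = 3 each), from 212 to 431 counts in a library. The log2 difference was -0.55, its standard error 0.15 and its 95% interval -0.89 to -0.21. Its edgeR p was 0.0063 before adjustment and 0.999 after it. Over the alternatives the difference ran from -0.65 to -0.36 and the unadjusted p from 0.0016 to 0.026.

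Its partner chain gave no such separation. Col11a2, the second type XI chain and the most abundant fibrillar gene, stood at 23.1, 23.7 and 28.4 CPM in isolated libraries, against 27.2, 27.7 and 20.7 CPM in control libraries. The groups overlapped, and the log2 difference was -0.01, with a 95% interval of -0.31 to 0.30. Col2a1, whose product joins them in the cartilage type XI molecule, had only 11 to 22 counts in a library and a difference of 0.25, with an interval that included zero.

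Type I collagen, the main fibril of skin, bone and meninges, was measured through both of its chains. Col1a2 stood at 22.4, 15.9 and 10.3 CPM in isolated libraries, against 17.4, 17.7 and 15.8 CPM in control libraries. Isolated 1 was the highest and isolated 3 the lowest of all 6, and the log2 difference was -0.06, with an interval of -0.63 to 0.50. Col1a1, named here after its values were seen, stood at 9.77, 7.18 and 4.95 CPM in isolated libraries, against 9.62, 11.3 and 8.8 CPM in control libraries. Isolated 2 and isolated 3 lay below every control, isolated 1 did not, and the difference was -0.44 with an interval of -0.98 to 0.10. Without isolated 3 it was -0.23, and without isolated 1 it was -0.71.

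Of the type V chains, which start the assembly of type I fibrils, Col5a1 was the most abundant. Col5a1 stood at 27.4, 33.9 and 29.1 CPM in isolated libraries, against 35.5, 23.9 and 25.7 CPM in control libraries. The highest and the lowest value were both controls, and the log2 difference was 0.09 with an interval of -0.28 to 0.45. Col5a2 differed by -0.17 and Col5a3 by 0.25, each with an interval that included zero. Col3a1 had its lowest value, 0.905 CPM, in isolated 3 and its highest, 3.76 CPM, in control 2, and it differed by -0.53, with the widest interval of the class at -1.58 to 0.52. Without control 2 the Col3a1 difference was -0.01, without isolated 3 it was -0.24, and without control 1 it was -0.84.

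The 2 fibrillar genes with the shorter repeat gave unlike values. Col24a1, named after its values were seen, stood at 6.68, 6.8 and 8.57 CPM in isolated libraries, against 9.3, 11.4 and 7.92 CPM in control libraries. Isolated 3 overlapped the controls, and the log2 difference was -0.38 with an interval of -0.76 to 0.01 and an unadjusted edgeR p of 0.055. Col27a1 varied little, at 7.5 to 7.71 CPM in isolated and 7.15 to 8 CPM in control libraries, and its difference was 0.03 with an interval of -0.20 to 0.26. The difference between these genes was not tested. The fibrillar class summed to 17.1 ± 0.614 FPKM in isolated and 18.5 ± 1.86 FPKM in control libraries (SD, n = 3 each). The log2 ratio of these means was -0.12, beside a pooled SD within groups of 0.11 on the log2 scale. The groups overlapped, as control 3 at 16.5 FPKM lay below isolated 1 at 17.5 FPKM.

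**Figure D3:**
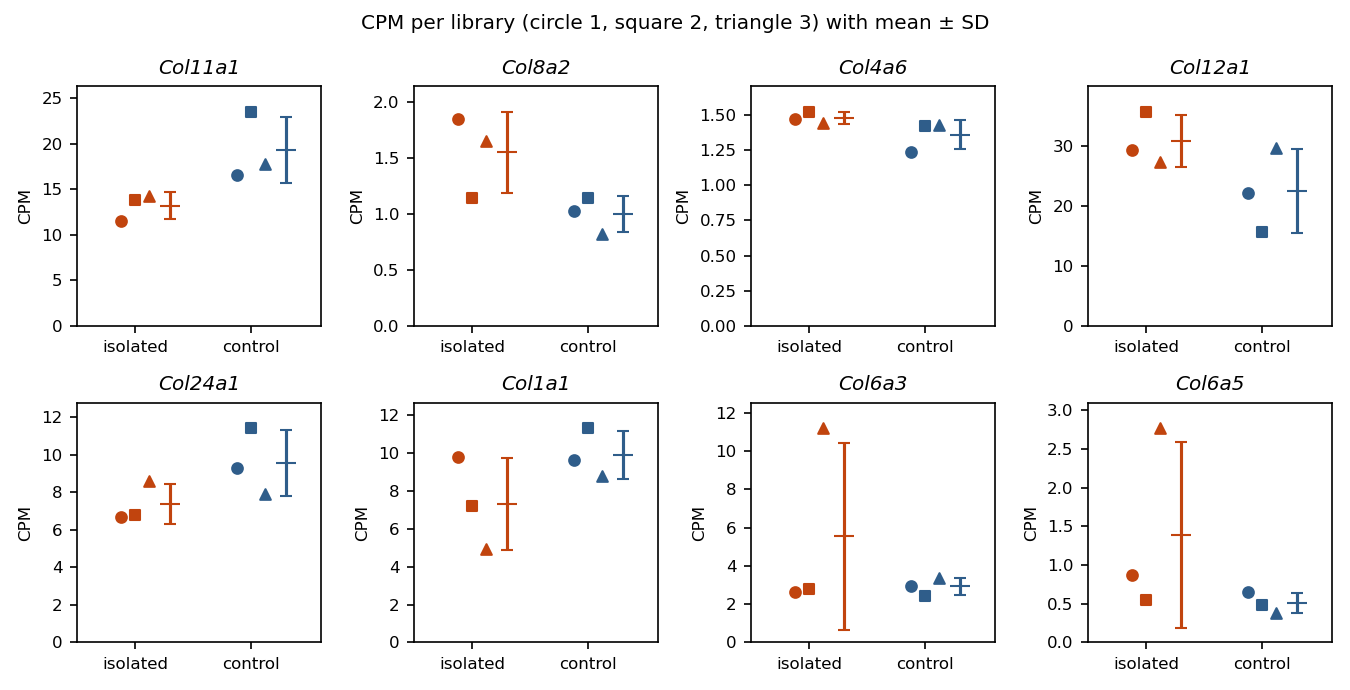
Level in CPM of 8 collagens in each isolated and control library, with the mean and SD of the 3 libraries of a group; circle, square and triangle mark libraries 1, 2 and 3, and each axis starts at 0. Col11a1 and Col4a6 show no overlap between groups, whereas the isolated means of Col6a3 and Col6a5 rest on isolated 3 (11.2 and 2.77 CPM).

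Type IV collagen is the scaffold of the basement membrane around every brain vessel, where chains from Col4a1 and Col4a2 join in 1 molecule. Both genes had differences near zero with narrow intervals. Col4a1 stood at 53.5, 56.9 and 53 CPM in isolated libraries, against 58, 54.6 and 58.8 CPM in control libraries. Isolated 2 lay between the controls, and the log2 difference was -0.07 with an interval of -0.20 to 0.07. Col4a2 stood at 73.2, 76 and 67 CPM in isolated libraries, against 69.6, 64.5 and 75.9 CPM in control libraries. These values interleaved, and the difference was 0.04 with an interval of -0.14 to 0.22. These genes had 986 to 1398 counts in a library.

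The pair is transcribed from a shared promoter region in opposite directions, and the bases common to the 2 promoter windows are shown. On GRCm38.p6 the 2 RefSeq starts used for the promoter windows lie 21 bases apart, and the 5′ ends of the genes overlap there. The whole gene spans reach further, with the 5′ end of Col4a1 at chr8:11312889 and that of Col4a2 at chr8:11312805. The promoter windows (250 bases before to 50 after a start) share 78 bases. All of these lie within 50 bases after the start of Col4a1 or of Col4a2, not upstream of both. In GENCODE M21, 0.333% of the Col4a1 exon bases overlap Col4a2 on the other strand. The shared bases are read 5′ to 3′ on the plus strand, with the GC box GGGCGG in capitals.
Col4a1 and Col4a2, chr8:11312777-11312854: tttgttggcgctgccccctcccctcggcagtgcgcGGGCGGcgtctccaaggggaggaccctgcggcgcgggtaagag
Searched on both strands, the GC box GGGCGG was present in 23 of the 38 collagen windows found (60.5%), against 35.7% of all 32851 windows. The CCAAT box was in 34.2% of collagen windows, against 37.4% of all, and TATAAA in 13.2%, against 13.6%. The windows cover 35 of the 44 genes. The Col11a1 window holds a GC box and a CCAAT box, as do those of Col4a1 and Col4a2. These are matches of letters and not measured binding.

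The minor type IV chains were scarce. Col4a5 and Col4a6 are a head-to-head pair on chromosome X, and their starts used for the promoter windows are 1343 bases apart. They averaged 0.533 and 0.213 FPKM. Col4a6 stood at 1.47, 1.52 and 1.44 CPM in isolated libraries, against 1.24, 1.42 and 1.43 CPM in control libraries. The groups did not overlap, yet isolated 3 and control 3 were almost the same, at 23 to 28 counts in a library. The log2 difference was 0.11 with a standard error of 0.19 and an unadjusted edgeR p of 0.619. Col4a5 differed by -0.05. Col4a3 and Col4a4, the chains of kidney and lung basement membranes, had at most 14 and 11 counts in a library. Summed over the class, type IV collagen was 20.1 ± 0.942 FPKM in isolated and 20.1 ± 0.928 FPKM in control libraries (SD, n = 3 each).

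Type VI collagen forms beaded filaments beside basement membranes, built from the products of Col6a1, Col6a2 and a further chain from Col6a3 or a related gene. Col6a1 stood at 53.1, 76 and 78.3 CPM in isolated libraries, against 58.4, 67.4 and 61.3 CPM in control libraries. Isolated 1 was the lowest library and isolated 3 the highest, and the log2 difference was 0.15 with an interval of -0.18 to 0.48. Col6a2 stood at 18.2, 17.9 and 17.4 CPM in isolated libraries, against 18.3, 16 and 13.7 CPM in control libraries. Control 1 exceeded every isolated library, and the difference was 0.16 with an interval of -0.09 to 0.41.

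The values of these further chains turned on 1 library. Col6a3, named after its values were seen, stood at 2.66, 2.77 and 11.2 CPM in isolated libraries, against 2.97, 2.45 and 3.35 CPM in control libraries. Isolated 3 was far above all others, and the log2 difference of 0.92, with an interval of -0.38 to 2.22, was -0.11 without that library. Col6a5, also named after its values were seen, stood at 0.868, 0.544 and 2.77 CPM in isolated libraries, against 0.649, 0.49 and 0.385 CPM in control libraries. Isolated 3 again stood apart, and the difference of 1.45, with an interval of -0.03 to 2.93, was 0.47 without it. Col6a4, which has no working human counterpart, was also highest in isolated 3 at 5.59 CPM, with 2.66 and 2.83 CPM in isolated 1 and 2, against 3.73 to 4.56 CPM in control libraries, and differed by -0.18. Without isolated 3 the Col6a4 difference was -0.61 (edgeR, unadjusted p = 0.01), and without isolated 1 it was 0.01. Col6a6 had 4 to 9 counts in a library and was not tested.

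Isolated 3 also had the highest summed markers of choroid plexus and ependyma and of mature oligodendrocytes, but not of striatal projection neurons. Summed over 10 markers of choroid plexus and ependyma, the epithelia of the ventricles, it reached 15.7 FPKM, with 6.13 and 6.22 FPKM in isolated 1 and 2, against 3.75 to 6.05 FPKM in control libraries. Of these markers Otx2 and Tmem212 were listed at 0 in at least 1 library. The 13 markers of mature oligodendrocytes summed to 2866 FPKM in isolated 3, with 1523 and 1654 FPKM in isolated 1 and 2, against 1166 to 1966 FPKM in control libraries. The 15 markers of striatal projection neurons, the main neurons of the neighbouring striatum, summed to 1116 FPKM in isolated 3, with 271 and 265 FPKM in isolated 1 and 2. In control 1 to 3 they summed to 508, 1533 and 181 FPKM, and Isl1 was listed at 0 in at least 1 library. The part of these cells in the Col6a3 and Col6a5 values was not tested.

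The fibril-associated collagens bind to the surface of fibrils. They had 4 genes above zero and 4 below, with a median log2 difference of -0.02. Col19a1, the most abundant, stood at 52.2, 54.8 and 46.1 CPM in isolated libraries, against 55.2, 48.7 and 65.4 CPM in control libraries. The groups overlapped, and the difference was -0.15 with an interval of -0.41 to 0.12. Col16a1 stood at 16.4, 17.9 and 15.3 CPM in isolated libraries, against 16.4, 15.5 and 17 CPM in control libraries. It was among the steadiest of the collagens, with a difference of 0.02 and an interval of -0.17 to 0.22.

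Col12a1, which links type I fibrils to other matrix and was named after its values were seen, stood at 29.4, 35.7 and 27.3 CPM in isolated libraries, against 22.1, 15.7 and 29.6 CPM in control libraries. Control 3 overlapped the isolated libraries and control 2 was the lowest. The log2 difference was 0.46 with an interval of -0.04 to 0.96, and it was 0.26 without control 2 and 0.71 without control 3. Its unadjusted p was 0.068 with edgeR, 0.028 with DESeq2 and 0.048 with limma-voom. Over all alternatives the unadjusted p ran from 0.006 (edgeR without control 3) to 0.204 (edgeR without isolated 2). Of the type IX genes, whose product coats cartilage fibrils, Col9a2 differed by 0.30 and Col9a3 by 0.16, and Col9a1 had 5 to 11 counts in a library. A share of 7.68% of the Col9a3 exon bases overlaps a gene on the other strand, and it is not stated if reads were counted by strand. Col22a1, a collagen of muscle and tendon junctions, differed by -0.44, Col14a1 by -0.16 and Col20a1 by -0.06, each with an interval that included zero.

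Among the membrane-spanning collagens, 1 gene lay above zero and 3 below, with a median of -0.14. Col25a1 stood at 52.6, 55.2 and 59.9 CPM in isolated libraries, against 43.7, 62.1 and 66.2 CPM in control libraries. The controls held both the lowest and the highest value, and the log2 difference was -0.04 with an interval of -0.38 to 0.30. Col23a1 had both its lowest value (5.72 CPM, control 3) and its highest (11.8 CPM, control 2) among the controls, and it differed by 0.13. Col13a1, which helps to build the neuromuscular junction, differed by -0.24 and Col17a1, a hemidesmosome component of skin, by -0.35, both at 28 counts or fewer in a library.

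The remaining collagens were of low abundance. Col8a2 is a chain of the open network under the corneal endothelium. In the main edgeR fit it was the only collagen higher at an unadjusted p under 0.05. DESeq2 had 2 collagens higher at that threshold. Col8a2 stood at 1.85, 1.14 and 1.65 CPM in isolated libraries, against 1.03, 1.14 and 0.825 CPM in control libraries. Isolated 1 and isolated 3 lay above every control, and isolated 2 and control 2 had the same value. The log2 difference was 0.63 with a standard error of 0.26 (edgeR unadjusted p = 0.046, adjusted p = 0.999), from 15 to 34 counts in a library. DESeq2 gave it an unadjusted p of 0.143. Over the fits that left out a library its difference ran from 0.48 to 0.80.

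Its partner Col8a1 averaged 3.08 ± 0.487 CPM in isolated and 2.49 ± 0.506 CPM in control libraries (SD, n = 3 each), a log2 difference of 0.31 with an interval of -0.18 to 0.79. Summed with Col10a1, this short-chain group was 0.89 to 1.14 FPKM in isolated and 0.73 to 0.83 FPKM in control libraries, without overlap. Without Col8a1 the sums overlapped, at 0.45, 0.29 and 0.4 FPKM in isolated against 0.29, 0.35 and 0.26 FPKM in control libraries. Col10a1 itself ran the other way, at 1 to 2 counts in isolated and 3 to 5 counts in control libraries, and was not tested. Col15a1 and Col18a1, vascular basement membrane collagens of which Col18a1 is the source of endostatin, differed by 0.21 and 0.03. Col7a1, the anchoring fibril of skin, differed by 0.24, Col28a1 by 0.21 and Col26a1 by -0.25. Each of these 6 intervals included zero.

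**Figure D4:**
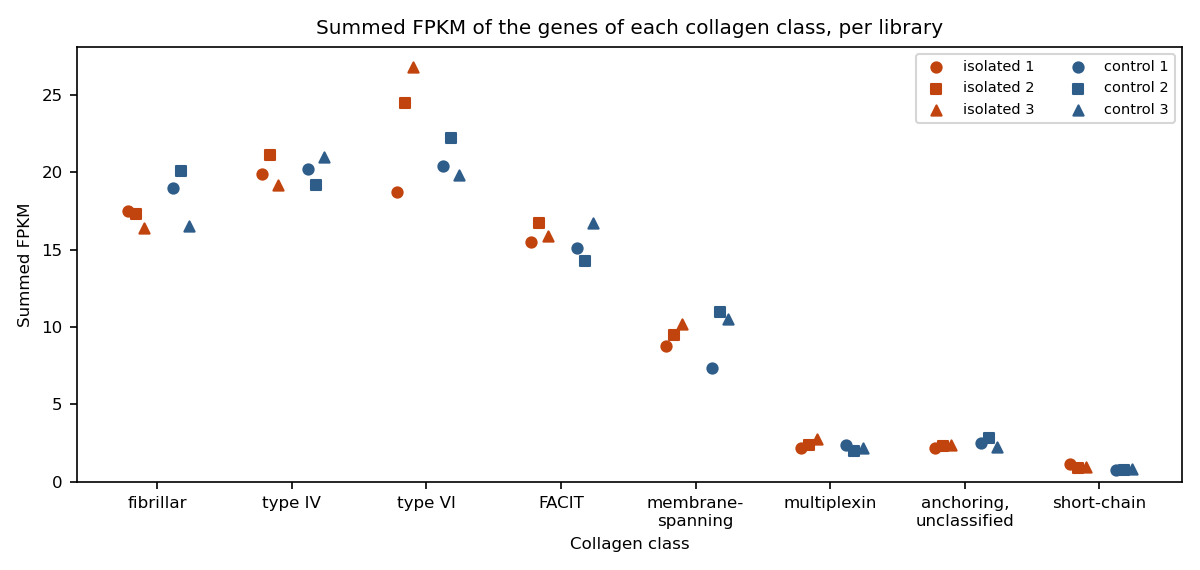
Summed FPKM of the genes of each collagen class in each library, isolated libraries left of control libraries, with symbols for the library number. Type IV sums lie between 19.2 and 21.1 FPKM in all 6 libraries, whereas type VI sums span 18.7 to 26.8 FPKM within the isolated group.

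Levels per length allow chains of 1 molecule to be set against each other, and 10 such ratios were compared between the groups with an exact two-sided permutation test, in which the smallest p that 3 against 3 libraries can give is 0.1. The ratio of Col1a1 to Col1a2 was 0.383, 0.396 and 0.422 in isolated libraries, against 0.485, 0.56 and 0.488 in control libraries. All isolated values lay below all control values (exact permutation p = 0.1, 0.5 after Benjamini-Hochberg adjustment over the 10 ratios). On the log2 scale the ratio differed by -0.35 between the groups, and by -0.39 to -0.28 with 1 library left out in turn.

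The ratio of Col11a1 to Col11a2 was 0.42, 0.486 and 0.418 in isolated libraries, against 0.511, 0.704 and 0.73 in control libraries, again without overlap (exact permutation p = 0.1, adjusted 0.5). The log2 difference of this ratio was -0.54, and -0.70 to -0.45 with 1 library left out in turn. It shares its numerator with the Col11a1 result and is not separate evidence. Col4a1 to Col4a2 was 0.736 ± 0.0288 in isolated and 0.797 ± 0.0376 in control libraries (SD, n = 3 each), with overlapping values (exact permutation p = 0.2, adjusted 0.667). Col6a1 to Col6a2 was 3.63 ± 0.786 in isolated and 3.7 ± 0.623 in control libraries (SD, n = 3 each; exact permutation p = 0.9). Col6a1 to Col6a3 spanned 15.9 to 63.2, with the lowest value in isolated 3. The other 5 ratios had exact permutation p of 0.4 to 0.8.

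**Figure D5:**
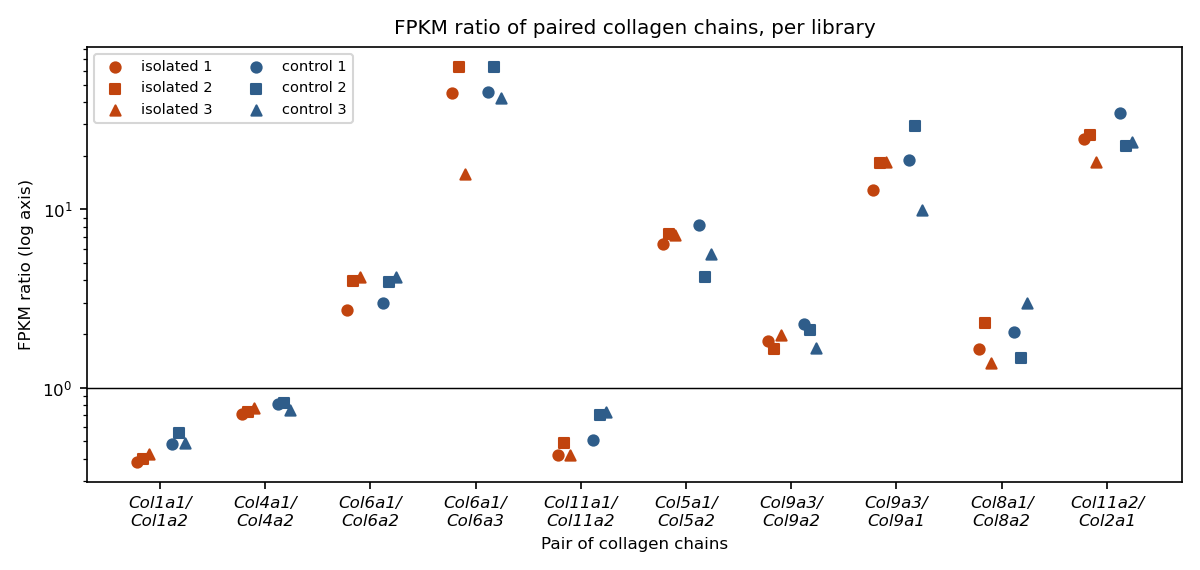
FPKM ratio of the 2 genes of each of 10 collagen chain pairs (log axis) in each library, isolated libraries left of control libraries; the line marks a ratio of 1. For Col1a1/Col1a2 and Col11a1/Col11a2 the isolated points all lie under the control points, at 0.383 to 0.422 against 0.485 to 0.56 and at 0.418 to 0.486 against 0.511 to 0.73.

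The genes that make, process, bind and degrade collagen were followed in 6 lists of 93 genes, of which 87 were tested. In the edgeR test with Benjamini-Hochberg adjustment 0 passed in either direction. At an unadjusted p under 0.05, 2 were higher and 2 were lower, and 44 lay above zero and 43 below, with a median of 0.00. These 4 of 87 lie near the share among all tested genes (3.53%). Groups did not overlap for 11 of the 87, against 8.85% of all tested genes.

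Of 23 genes for synthesis and secretion, 13 lay above zero and 10 below, with a median of 0.04. Sec24d, a coat protein of the vesicles that carry procollagen, stood at 13.4, 16.5 and 14.8 CPM in isolated libraries, against 12, 11.9 and 11.9 CPM in control libraries. The groups did not overlap, and the log2 difference was 0.32 with a standard error of 0.09 (edgeR unadjusted p = 0.01, adjusted p = 0.999). P4ha1, a prolyl hydroxylase that stabilises the helix, averaged 46.2 ± 3.81 CPM in isolated and 56.2 ± 10.8 CPM in control libraries (SD, n = 3 each). Its log2 difference was -0.28 with an interval of -0.60 to 0.04, and it was -0.15 without control 1 and -0.42 without control 3. The most abundant members were Ppib, a folding enzyme, and P4hb, the partner of the prolyl hydroxylases, which differed by -0.01 and 0.04.

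Of 13 tested genes for trimming and cross-linking, 6 lay above zero and 7 below, with a median of -0.02. Tll2, a tolloid-like protease, stood at 0.868, 1.03 and 0.959 CPM in isolated libraries, against 0.487, 0.708 and 0.66 CPM in control libraries. The groups did not overlap, and the log2 difference was 0.62 with a standard error of 0.26 (edgeR unadjusted p = 0.047, adjusted p = 0.999). Adamts2, which removes the amino-terminal propeptide, differed by 0.21. Bmp1, the protease of the other propeptide, and Pxdn, which cross-links type IV collagen, were the most abundant and differed by -0.04 and -0.05.

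Of 9 tested receptors, 6 lay above zero and 3 below, with a median of 0.03. Itga1, an integrin subunit that binds type IV collagen, stood at 5.64, 7.02 and 7.35 CPM in isolated libraries, against 8.81, 10.2 and 7.48 CPM in control libraries. The groups did not overlap, although isolated 3 and control 3 were close, and the log2 difference was -0.41 with a standard error of 0.16 (edgeR unadjusted p = 0.033, adjusted p = 0.999). Mrc2, a receptor that takes up collagen for degradation, differed by 0.30. Ddr1, a collagen-activated kinase, and Adgrg1, a receptor for type III collagen in the developing cortex, differed by 0.05 and 0.07.

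Of 11 tested genes for breakdown, the metalloproteinases and their inhibitors, 5 lay above zero and 6 below, with a median of -0.03 and 0 at an unadjusted p under 0.05. Mmp2, a gelatinase, differed by -0.19, and the inhibitors Timp4, Timp2 and Timp3 by -0.09, 0.02 and -0.03. Of 18 basement membrane partners, 9 lay on each side of zero. Lama4, a laminin chain of vessel walls, stood at 8.41, 9.9 and 7.78 CPM in isolated libraries, against 10.7, 10.9 and 10.4 CPM in control libraries. The groups did not overlap, and the log2 difference was -0.30 with a standard error of 0.11 (edgeR unadjusted p = 0.028, adjusted p = 0.999). Lamb3, an epithelial laminin chain, differed by 0.51, and the abundant Sparc and Agrn by 0.04 and 0.06. Of 13 proteins that bind fibrils, 5 lay above zero and 8 below, with Tnxb at 0.27, Thbs1 at -0.53, Fn1 at 0.12 and Sparcl1 at -0.01.

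Cell type markers were read beside the collagens, since fibroblasts, vessel cells and neurons make different members. The 14 endothelial markers summed to 179 to 188 FPKM in isolated and 184 to 192 FPKM in control libraries, with overlap. Without Slc2a1, the most abundant of them, the sums were 130, 134 and 131 FPKM in isolated and 140, 148 and 139 FPKM in control libraries, without overlap, and 12 of the 14 markers had a log2 difference below zero. Groups did not overlap for 4 of these 14, all lower in isolated libraries, against 8.85% of all tested genes. The same held for 4 of 11 microglia and 3 of 11 astrocyte markers, also all lower. The 11 astrocyte markers summed to 792 to 812 FPKM in isolated and 843 to 851 FPKM in control libraries, without overlap. Without Slc1a2, the most abundant, they overlapped, at 538, 554 and 568 FPKM in isolated against 581, 572 and 567 FPKM in control libraries. The 11 microglia markers summed to 182 to 199 FPKM in isolated and 196 to 211 FPKM in control libraries, with overlap. The 13 pericyte and smooth muscle markers summed to 77 to 84.1 FPKM in isolated and 83.5 to 102 FPKM in control libraries, with the highest sum in control 2. The 15 markers of meningeal fibroblasts summed to 638, 518 and 402 FPKM in isolated 1 to 3, against 444, 504 and 471 FPKM in control 1 to 3, the same order within the isolated group as Col1a1 and Col1a2. That sum is mostly Ptgds, and without it the sums were 61.1, 61.1 and 68 FPKM in isolated and 54.1, 88.7 and 48.2 FPKM in control libraries. The highest of these was control 2, which was also highest for some collagens, among them Col11a1, Col1a1, Col24a1 and Col3a1. Other collagens were lowest in control 2, among them Col5a1 (23.9 CPM), Col12a1 (15.7 CPM) and Col4a2 (64.5 CPM). Col1a2 was highest in isolated 1 (22.4 CPM). The 12 deep-layer and 8 upper-layer cortical neuron markers were present in all 6 libraries. The deep-layer ones summed to 186 to 211 FPKM in isolated and 168 to 181 FPKM in control libraries. Without Tbr1, the most abundant, they overlapped, at 134, 152 and 168 FPKM in isolated against 121, 143 and 121 FPKM in control libraries. The upper-layer markers summed to 209 to 280 FPKM in isolated and 221 to 271 FPKM in control libraries, with overlap. Without Lamp5, the most abundant, the groups did not overlap. The sums were then 145, 139 and 118 FPKM in isolated against 154, 146 and 154 FPKM in control libraries. In the edgeR fit 3 of these 8 markers were lower at an unadjusted p under 0.05 and 0 higher, against 3.53% of all tested genes. Of the 12 deep-layer markers 4 were higher and 0 lower at that threshold. After adjustment 0 passed. The part of any of these cells in the collagen values was not tested.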

How the data were processed

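Per the labels' protocols, total RNA of each library was read on a BGISEQ-500 instrument in 50-base reads. Per the file headers, the authors deposited for each library an expected count per gene, an estimate that need not be whole and was not normalized, and an FPKM value scaled for gene length and library size. The submitters' processing notes name HISAT, Bowtie2, RSEM and mm10 and give no versions. A series-wide table with 6 value columns of codes that match no sample label was not used here.

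A gene absent from a library's table counted as 0, and the entry without a symbol, at most 0.00095% of a library's reads, was left out. Expected counts were rounded and summed to 18390866 to 18606540 in isolated and 18226416 to 18544288 in control libraries. Every pair of libraries differed beyond counting noise, with a chi-square per gene of 2.89 to 20.4. Of the gene IDs, 19899 matched GRCm38.p6. The main test was the quasi-likelihood F-test of edgeR 4.0.16 in R 4.3.3, with TMM factors of 0.991 to 1.01, filterByExpr (minimum count 10, minimum total 15) and Benjamini-Hochberg adjustment over 15169 genes at 0.05. The standard error came from the F statistic and the interval is at 95%. Alternatives were DESeq2 1.42.0, limma 3.58.1 (voom, and log2(FPKM + 1) or log2(FPKM + 0.1)), other scaling, no filter, and fits without libraries. A fold change on log2(FPKM + pseudocount) understates low genes.

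Values for every library are given for the 10 collagens with the highest mean FPKM, those with unadjusted p under 0.05 and those whose groups do not overlap; from each pathway list, the 2 smallest p and the 2 highest levels are named. The members, classes and lists were chosen with earlier results of these data known. Exon overlaps between genes were computed from GENCODE M21. The labels state no pairing by library number. The deviations of same-numbered libraries from their group means correlated at 0.0254, -0.269 and -0.492. With 3 libraries in each group, these values cannot show whether the libraries were paired.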

Additional observations from a re-analysis of the deposited data

How the results depend on the processing

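No collagen and no pathway gene passed an adjusted p of 0.05 in the main fit or in any of the 16 alternatives, and the smallest adjusted p of a collagen was 0.837, without control 3. The block on library number is given although no pairing by number is stated: with this replicate block 0 collagens were called. The medians were then 0.03 for all collagens and -0.12 for the fibrillar class. Of the 40 tested collagens, 19 kept the sign of their difference in all 16 alternatives, and 18 reversed when some library was left out. Without control 2 and isolated 3, the libraries with the most striatal RNA, the median log2 difference was 0.07 for all collagens and 0.13 for type IV. The median of the other collagens was 0.05 on log2(FPKM + 1) and 0.03 on the same scale without a filter, where a pseudocount of 1 shrinks differences of low genes. Leaving out 1 library in turn, the fibrillar median ran from -0.17 (without isolated 1) to -0.02 (without control 2) and that of the other collagens from 0.05 (without isolated 3) to 0.14, with 0.06 without control 3. None of the chain ratios moved by more than the spread between libraries when a library was left out. Without its most abundant member, neither the sum of all collagens nor that of the fibrillar, type IV or other class moved by more. The cause of the shifts was not tested.

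Without control 2 and isolated 3 together, these log2 differences changed sign: Col13a1 to 0.07, Col15a1 to -0.12, Col3a1 to 0.28, Col4a5 to 0.12, Col5a2 to 0.01, Col6a3 to -0.22, Col1a2 to 0.21, Ppib to 0.03, Pxdn to 0.02, Ddr1 to -0.07 and Timp3 to 0.06. Col11a2 was 0.00, just above zero, with limma-voom and in the 3 FPKM fits. Leaving out 1 library in turn, the difference lay on both sides of zero for Col16a1 (-0.04 to 0.08), Col11a2 (-0.13 to 0.07), Col13a1 (-0.72 to 0.07), Col17a1 (-0.60 to 0.02), Col18a1 (-0.13 to 0.14), Col2a1 (-0.04 to 0.46), Col4a2 (-0.01 to 0.10), Col4a3 (-0.10 to 0.40), Col4a5 (-0.22 to 0.06) and Col5a1 (-0.02 to 0.28). The same held for Col6a3 (-0.11 to 1.25), Col9a3 (-0.04 to 0.29), Col1a2 (-0.37 to 0.18), Col23a1 (-0.05 to 0.54), Col27a1 (0.00 to 0.08), Col6a4 (-0.61 to 0.01), Col20a1 (-0.23 to 0.07) and Col25a1 (-0.20 to 0.08). Among the pathway genes it held for Ppib (-0.06 to 0.04), P4hb (-0.04 to 0.08), Pxdn (-0.11 to 0.07), Ddr1 (-0.12 to 0.13), Adgrg1 (-0.01 to 0.16), Timp2 (-0.04 to 0.06), Timp3 (-0.08 to 0.05), Sparcl1 (-0.07 to 0.04) and Fn1 (-0.02 to 0.23). Other differences kept their sign but moved by over 1.5 times when a library was left out, among them Col15a1 (0.04 to 0.36), Col22a1 (-0.66 to -0.20), Mrc2 (0.13 to 0.51) and Thbs1 (-0.79 to -0.28). With 3 libraries in each group and fewer than 100 counts in a library for many members, small differences were not detectable.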
